A study of Mus musculus with 16 samples.

Results

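The interferon-stimulated genes described here are Ifit1, Ifit3, Ifitm3, Irf7, Isg15, Oasl2, Bst2, Usp18 and Rtp4. They were picked by gene symbol and make up 9 of the 47593 genes counted in each of 16 RNA-seq libraries of mouse cortex. The mice, each library a biological replicate by its label, were of the 5xFAD line, an amyloid model on a C57BL/6-SJL hybrid background. All mice were heterozygous for human transgenes with familial Alzheimer's disease mutations, which the mouse Thy-1 promoter drives in neurons, so vehicle and rapamycin groups shared them and no library without the transgenes was part of the comparison. From 2 to 5 months of age the mice ate either a control diet with the empty carrier (vehicle) or the same kind of diet with rapamycin, an inhibitor of the mTOR kinase. Cortex was taken at the end of that period. The 4 groups held 4 libraries each: FC and MC are females and males on the vehicle diet, and FR and MR are females and males on rapamycin. The labels place FC 4, FR 4, FR 5, MC 4 and MR 4 in batch 2 and the other 11 in batch 1.

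Type I interferons bind a receptor on nearly every cell type and act through JAK kinases and a complex of STAT proteins and IRF9 that binds the interferon-stimulated response element (ISRE) in the promoters of its target genes. The products slow viral replication at many steps, and in the brain of amyloid models microglia are a well known source of these transcripts. Among the 9 genes, Irf7 encodes the transcription factor that amplifies interferon production, and Isg15 encodes a ubiquitin-like protein that Usp18 removes from its targets, with Usp18 also dampening receptor signalling. Ifit1 and Ifit3 encode proteins that bind foreign RNA, Ifitm3 a membrane protein that hinders viral entry, Oasl2 a relative of the oligoadenylate synthetases, Bst2 the tether that holds budding virions (tetherin), and Rtp4 a receptor transporter protein induced by interferon.

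The libraries held 16393501 to 20593089 read pairs assigned to genes. One library went against its label. The library labelled MR 4 had 9935 read pairs on Xist, the noncoding RNA of the inactive X chromosome, and 0 on Y-linked genes, whereas the other 7 male libraries had 1 to 17 and 1915 to 2231, and the 8 female libraries 8678 to 23541 and at most 8. It is called the library labelled MR 4 throughout, and results by sex are given with and without it. Whether its diet label is right was not tested. MC 4 stood apart in another way, with choroid plexus markers summing to 1964 CPM (counts scaled to a common library total of 1000000 read pairs) against at most 326 in any other library. Markers of cortical neurons, astrocytes and oligodendrocytes summed to at least 3841, 2679 and 3263 CPM in every library. Mitochondrial genes took a share that ran from 2.64% to 5.47% of read pairs in vehicle libraries and from 3.75% to 6.99% in rapamycin libraries.

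The promoters are shown because the 9 genes varied together across libraries. For each gene the 250 bases before the RefSeq start site are printed 5′ to 3′ on the gene's own strand (build GRCm38.p6), with matches to the ISRE core, the letters GAAA, any 2 bases and GAAA again, or TTTC, any 2 bases and TTTC on the other strand, in capitals. Ifit1, Ifit3, Isg15 and Bst2 hold matches before the start site, and Oasl2 is printed as a gene with the same direction of change and none.
Ifit1, chr19:34640639-34640888, plus strand: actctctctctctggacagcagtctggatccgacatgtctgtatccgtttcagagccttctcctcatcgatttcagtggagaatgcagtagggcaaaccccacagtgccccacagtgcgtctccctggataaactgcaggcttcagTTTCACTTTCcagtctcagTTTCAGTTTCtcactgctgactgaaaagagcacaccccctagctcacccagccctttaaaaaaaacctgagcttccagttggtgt
Ifit3, chr19:34583279-34583528, plus strand: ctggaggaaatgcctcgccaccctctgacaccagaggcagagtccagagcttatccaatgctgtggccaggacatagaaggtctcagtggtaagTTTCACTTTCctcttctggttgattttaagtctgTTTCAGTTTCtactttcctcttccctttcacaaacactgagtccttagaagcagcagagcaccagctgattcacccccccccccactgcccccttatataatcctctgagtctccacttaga
Isg15, chr4:156200819-156201068, minus strand: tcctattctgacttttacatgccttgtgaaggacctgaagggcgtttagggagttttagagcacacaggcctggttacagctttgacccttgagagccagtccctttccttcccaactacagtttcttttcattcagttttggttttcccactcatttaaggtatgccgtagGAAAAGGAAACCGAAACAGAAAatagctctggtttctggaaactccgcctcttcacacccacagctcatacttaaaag
Bst2, chr8:71537473-71537722, minus strand: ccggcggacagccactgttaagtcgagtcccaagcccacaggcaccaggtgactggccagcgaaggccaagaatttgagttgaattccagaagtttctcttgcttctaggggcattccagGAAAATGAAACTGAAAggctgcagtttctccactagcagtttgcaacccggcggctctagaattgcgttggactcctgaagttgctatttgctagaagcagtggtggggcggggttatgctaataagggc
Oasl2, chr5:114896684-114896933, plus strand: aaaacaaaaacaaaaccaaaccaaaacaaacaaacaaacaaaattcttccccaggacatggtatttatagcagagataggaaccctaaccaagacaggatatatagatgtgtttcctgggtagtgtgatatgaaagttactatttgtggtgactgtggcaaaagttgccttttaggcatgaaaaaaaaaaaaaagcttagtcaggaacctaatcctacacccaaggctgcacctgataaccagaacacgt

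In a window of 250 bases before to 50 after the start site, 5 of the 7 genes with an entry in the promoter table held an ISRE core, and 3.44% of all 32851 promoters did. Ifit1 and Ifit3, both on chromosome 19, each held the pair TTTCACTTTC and TTTCAGTTTC, the nearer of them ending 76 bases before the start in Ifit1 and 113 before it in Ifit3. Isg15 on chromosome 4 held 3 matches that overlap one another, GAAAAGGAAA, GAAACCGAAA and GAAACAGAAA, and Bst2 on chromosome 8 held the overlapping matches GAAAATGAAA and GAAACTGAAA. Ifitm3 on chromosome 7 held GAAAAGGAAA and GAAACCGAAA just after its start site, at positions 3 to 12 and 20 to 29. These letters were not in the windows of Irf7 or Oasl2, and Usp18 and Rtp4 had no entry. The GAS core TTCNNNGAA, the element of interferon gamma signalling, was in the windows of Ifitm3 and Bst2, in both overlapping an ISRE match, and in 8.3% of all promoters. Of the genes with an entry on the other interferon lists below, 16 of 34 type I interferon-stimulated genes and 9 of 9 interferon gamma-inducible GTPases held an ISRE core. On the remaining lists 2 of 10 JAK, STAT and IRF genes, 2 of 11 nucleic acid sensing genes, 1 of 4 negative regulators and 0 of 5 receptors held one.

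Ifit1 lies at chr19:34640871-34650009 and Oasl2, the other gene that the results turn on, at chr5:114896936-114912234 (GRCm38). All 9 genes were measured in every library, with 15 to 453 read pairs per gene and library, and all 9 passed the filter on low counts that left 16553 genes. Levels between genes were compared per length, as CPM per kilobase of exon (FPKM). Ifitm3 was highest, at 19.6 ± 5.63 FPKM (SD, n = 16), above 82.7% of the tested genes. Bst2 followed at 12.03 ± 5.25 FPKM and Ifit3 at 7.95 ± 3.38 FPKM. Isg15 stood at 4.09 ± 1.89 FPKM. Each of these 4 genes lay above the next in at least 15 of 16 libraries, and the mean log2 ratio to the next exceeded its SD over libraries.

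The lower part of that order was not separated. Rtp4 averaged 2.38 ± 1.17 FPKM, Ifit1 1.84 ± 0.81 FPKM, Irf7 1.65 ± 0.834 FPKM, Oasl2 1.198 ± 0.591 FPKM and Usp18 0.845 ± 0.337 FPKM (SD, n = 16). Rtp4 was above Ifit1 in 11 libraries, Ifit1 above Irf7 in 10, Irf7 above Oasl2 in 13 and Oasl2 above Usp18 in 12. For each of these neighbours the mean log2 ratio was smaller than its SD, from 0.17 ± 0.55 between Ifit1 and Irf7 to 0.48 ± 0.51 between Irf7 and Oasl2. Ifit3 shares 31.7% of its 100-base windows with Ifit3b, and read pairs that map to both were left out, so its level is uncertain. The shared parts of Rtp4 (9.28%, with Gm45338), Ifit1 (3.29%, with Ifit1bl2) and Usp18 (1.00%, with Gm44148) were smaller.

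Rapamycin was compared with vehicle over both sexes in 1 model with sex and batch as terms. All 9 genes were lower with rapamycin, and 2 of them, Ifit1 and Oasl2, fell past an adjusted p of 0.05 (edgeR quasi-likelihood test, Benjamini-Hochberg over 16553 genes) and a fold of 1.5. The same rule called 2.26% of all genes tested and 1.57% as lower, and 47.7% of all genes lay on the lower side. The median log2 fold change of the 9 was -0.44, beside 0.02 for all genes tested. Cortex is a mixture of cells, and in such libraries fewer cells of a type and less RNA per cell cannot be told apart.

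Ifit1 read 7.38, 7.75, 7.67 and 4.51 CPM in the FC libraries and 3.67, 4.84, 3.10 and 3.60 CPM in the FR libraries. In males it read 4.40, 4.35, 5.07 and 9.45 CPM in MC 1 to MC 4 and 4.58, 2.37, 1.39 and 4.07 CPM in MR 1 to MR 3 and the library labelled MR 4. The groups overlapped in part, with 5 of 8 vehicle libraries above every rapamycin library and 6 of 8 rapamycin libraries below every vehicle library. Vehicle libraries averaged 6.32 ± 1.97 CPM and rapamycin libraries 3.45 ± 1.15 CPM (SD, n = 8 per diet). Ifit1 thus fell 1.85-fold, with a fitted log2 change of -0.89 ± 0.23 (SE, edgeR quasi-likelihood adjusted p = 0.0217).

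Oasl2 read 12.7, 15.6, 8.98 and 7.15 CPM in FC and 6.73, 9.52, 6.25 and 5.14 CPM in FR. It read 6.96, 6.26, 6.63 and 14.0 CPM in MC 1 to MC 4 and 3.49, 3.38, 2.17 and 7.26 CPM in MR 1 to MR 3 and the library labelled MR 4. In males the split was complete but for that last library, which lay above all MC libraries except MC 4. The averages were 9.78 ± 3.74 CPM on vehicle and 5.49 ± 2.42 CPM on rapamycin (SD, n = 8 per diet). Oasl2 fell 1.87-fold, with a fitted log2 change of -0.90 ± 0.24 (SE, edgeR quasi-likelihood adjusted p = 0.0242).

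Both calls depended on MC 4, which had the highest Ifit1 and the second highest Oasl2 of all libraries. Without it the log2 fold changes were -0.66 for Ifit1 (edgeR adjusted p = 0.0741) and -0.68 for Oasl2 (0.0833), and none of the 9 genes was called, where 1.89% of all genes were. In MC 4 the choroid plexus marker sum was the highest of 16 and the plaque-associated microglial sum only the 12th, and their part in the result was not tested. Without MC 4 and the library labelled MR 4 together, both genes were called again, at -0.71 (adjusted p = 0.0495) and -0.77 (0.0344), as were 1.81% of all genes. Without the library labelled MR 4 alone both were called, at -0.94 (edgeR adjusted p = 0.0297) and -1.02 (0.0246), as were 1.96% of all genes. The calls also ended when the batch term was dropped, at log2 fold changes of -0.87 for Ifit1 (adjusted p = 0.0713) and -0.86 for Oasl2 (0.0839). That of Oasl2 ended without FR 1, at -0.93 (0.051), and without MR 2, at -0.86 (0.0537). With the mitochondrial share, or the slope of expression on exon length (0.0004 to 0.100 in vehicle and -0.127 to 0.064 in rapamycin libraries), as a further term no gene of the 9 and none of all genes was called. For Ifit1 and Oasl2 the fitted log2 changes were larger under both terms, while their adjusted p values rose. The mitochondrial share gave -1.18 for Ifit1 (edgeR adjusted p = 0.558) and -1.26 for Oasl2 (0.567). The slope gave -1.06 (0.769) and -1.51 (0.739). The medians of the 9 were -0.79 with the mitochondrial share and -1.06 with the slope. With the mitochondrial share 6 of the 9 and 7.96% of all genes had an unadjusted p under 0.05, against 3 of the 9 and 30.4% without that term.

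**Figure D1:**
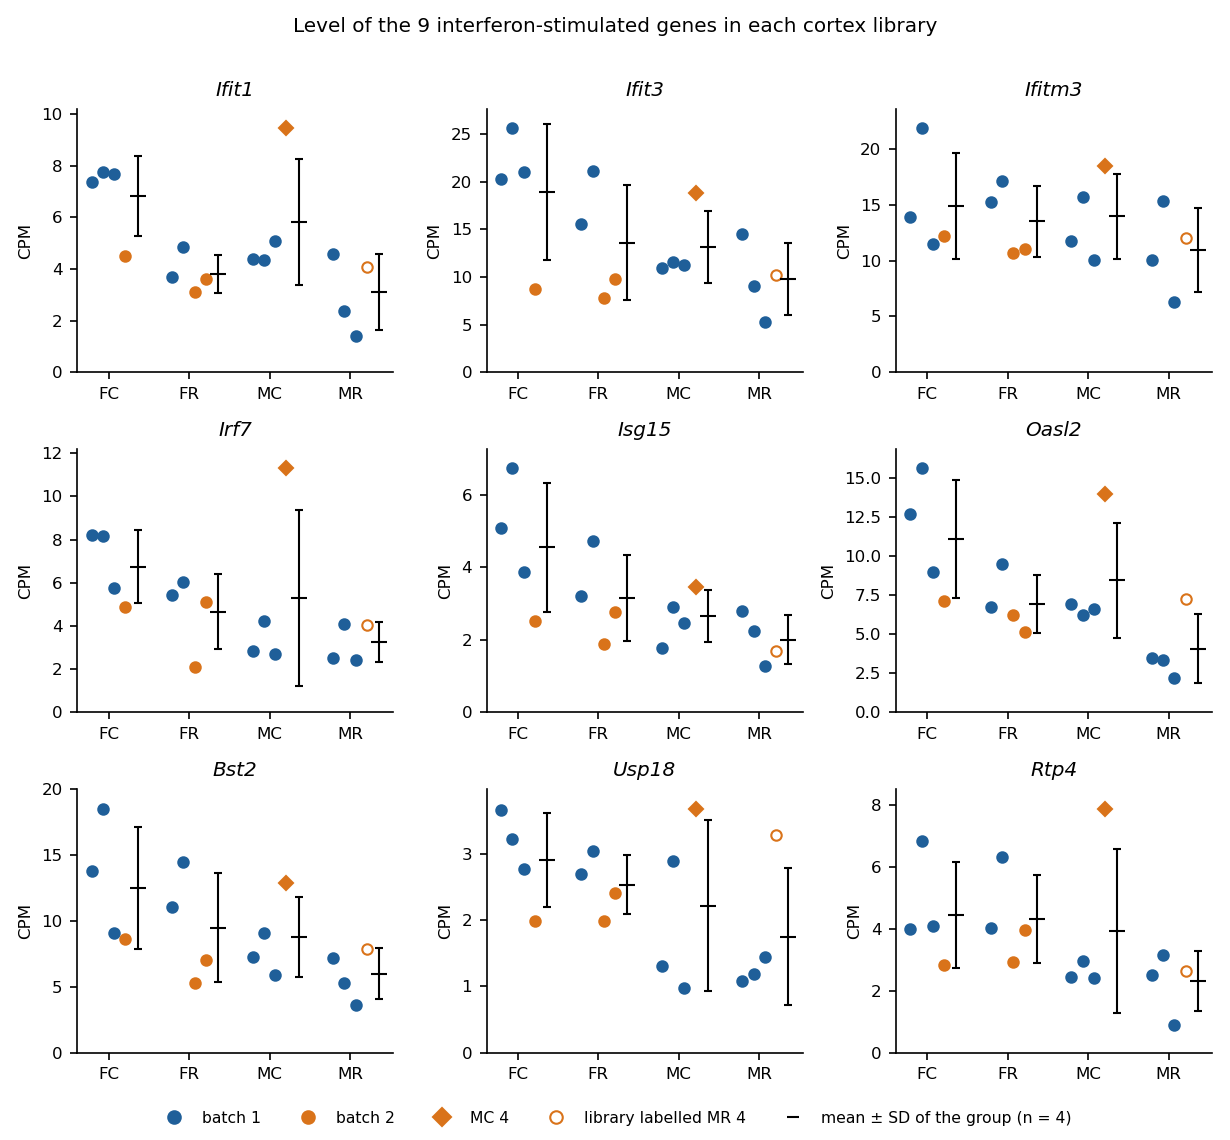
CPM of each of the 9 genes (vertical axes, from 0) in the 4 groups, 1 point per library, coloured by batch, with the mean and SD of each group at its right. MC 4, the diamond, was the highest MC library for all 9 genes, and the vehicle and rapamycin libraries overlapped for every gene.

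The other 7 genes did not pass the test over both sexes. Irf7 came nearest, reading 8.21, 8.14, 5.77 and 4.87 CPM in FC and 5.46, 6.04, 2.10 and 5.09 CPM in FR. In males it read 2.85, 4.25, 2.71 and 11.3 CPM in MC and 2.52, 4.09, 2.41 and 4.07 CPM in MR. MC 4 was the highest of its group, and the log2 fold change of -0.61 ± 0.28 (SE, edgeR adjusted p = 0.148) became -0.22 (0.578) without that library.

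Isg15 had a lowest, median and highest level of 1.78, 3.18 and 6.73 CPM in vehicle and 1.27, 2.51 and 4.73 CPM in rapamycin libraries, with a log2 fold change of -0.44 ± 0.22 (SE, edgeR adjusted p = 0.194). Bst2 ran from 5.88 over 9.10 to 18.6 CPM and from 3.62 over 7.13 to 14.5 CPM, with -0.46 ± 0.23 (0.190). Ifit3 ran from 8.78 over 15.2 to 25.6 CPM and from 5.31 over 10.03 to 21.2 CPM, with -0.43 ± 0.23 (0.221). In each of these 3 genes at most 2 vehicle libraries lay above all rapamycin libraries, and at most 3 rapamycin libraries lay below all vehicle libraries, so most libraries of the groups overlapped. Without MC 4 the log2 fold changes were -0.23 for Isg15, -0.25 for Bst2 and -0.15 for Ifit3.

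Ifitm3, Rtp4 and Usp18 had the smallest differences. Ifitm3 had medians of 13.1 CPM in vehicle and 11.5 CPM in rapamycin libraries and a log2 fold change of -0.24 ± 0.19 (SE, edgeR adjusted p = 0.414). Rtp4 had medians of 3.48 and 3.04 CPM and -0.40 ± 0.30 (0.386). Usp18 had medians of 2.84 and 2.204 CPM and -0.32 ± 0.27 (0.453). Without MC 4 the values of Ifitm3 and Usp18 were -0.09 and -0.15, and that of Rtp4 turned to 0.01. In MC 4 Rtp4 read 7.88 CPM against 2.44, 2.95 and 2.42 CPM in the other MC libraries.

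Within batches the direction was the same for each of the 9 genes. In batch 1, with 6 vehicle and 5 rapamycin libraries, the difference of mean log2 CPM ran from -1.004 for Oasl2 to -0.18 for Ifitm3, with a median of -0.39. In batch 2, with 2 vehicle and 3 rapamycin libraries, it ran from -1.05 for Irf7 to -0.10 for Usp18, with a median of -0.58. These differences were not adjusted for sex, and the 2 vehicle libraries of batch 2 were FC 4 and MC 4. FC 4 alone lay below the batch 2 rapamycin mean for Ifit3, at 3.15 against 3.23 log2 CPM. The same held for Usp18 (1.07 against 1.39) and Rtp4 (1.55 against 1.69). For the rest of the 9 genes FC 4 lay above that mean. Fitted in batch 1 alone, Oasl2 was called at -0.88 (edgeR adjusted p = 0.0344), as were 2.55% of all genes, and Ifit1 was not, at -0.78 (0.0584).

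**Figure D2:**
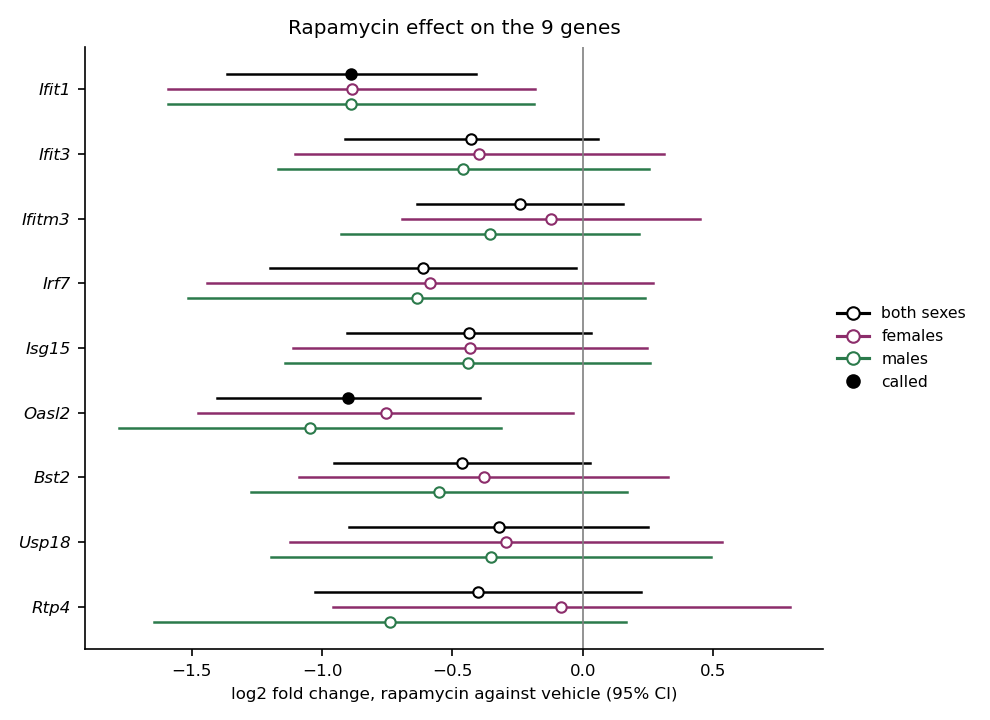
Log2 fold change of rapamycin against vehicle for the 9 genes over both sexes and in females and males, with 95% confidence intervals from the edgeR fits and a filled point where the gene was called. Every point lies below 0, and only Ifit1 and Oasl2 over both sexes are filled.

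In females alone none of the 9 genes was called, and 0.0121% of all genes were. All 9 lay on the lower side, as did 47.9% of all genes, with a median log2 fold change of -0.40, and Ifit1 (-0.89 ± 0.33 SE) and Oasl2 (-0.76 ± 0.34 SE) had an unadjusted p under 0.05 in edgeR, as did 23.1% of all genes. The lowest adjusted p was 0.126 in edgeR. DESeq2 also called none of the 9, where it called 3.46% of all genes. The female median was -0.22 without FC 2 and -0.26 without FR 4, and -0.64 without FC 4 and -0.67 without FR 2, with 7 to 9 of the genes on the lower side as single libraries were left out. Rtp4 was nearly level in females, at -0.08 ± 0.42 (SE).

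In males none was called by edgeR or DESeq2, and 0% of all genes were called by edgeR and 0.0967% by DESeq2. All 9 again lay on the lower side, as did 48.7% of all genes, with a median of -0.55, and the same 2 genes had an unadjusted p under 0.05, Ifit1 at -0.89 ± 0.33 (SE) and Oasl2 at -1.05 ± 0.35 (SE), beside 12% of all genes. The lowest edgeR adjusted p was 0.363. Without MC 4 the male median was -0.07, with Ifit3 and Irf7 at 0.03 and 0.10, and without MR 3 it was -0.37. Without the library labelled MR 4 none was called, and the median was -0.78.

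The difference between the female and the male effect was tested as a term of its own. It ran from 0.00 for Ifit1 to 0.66 for Rtp4 (female minus male, log2), none of the 9 and 0% of all genes were called in edgeR, and no gene of the 9 had an unadjusted p under 0.05, where 2.17% of all genes did. The intervals were wide, with 95% limits from -1.18 to 1.93 over the 9 genes, so a 2-fold difference in either direction lay inside the intervals of Irf7 and Usp18. DESeq2 called none either. The median of the 9 differences was 0.06 and did not keep its direction, at -0.20 without MC 4, -0.21 without FC 4, -0.15 without FR 2 and 0.35 without the library labelled MR 4.

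Females were then compared with males over both diets. All 9 genes were higher in females, as were 50.7% of all genes, with log2 differences from 0.20 for Ifitm3 to 0.71 for Isg15 and a median of 0.49, beside 0.00 for all genes. None was called, and 0.0302% of all genes were. Isg15 (0.71 ± 0.22 SE, edgeR adjusted p = 0.788), Oasl2 (0.60 ± 0.24 SE) and Bst2 (0.57 ± 0.23 SE) had an unadjusted p under 0.05, as did 5.99% of all genes. DESeq2 called none of the 9 either.

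That difference was not the same in the 2 batches. In batch 1 the mean log2 CPM of FC exceeded that of MC for 9 of 9 genes (3 libraries each, median 0.87), and that of FR exceeded MR for 9 of 9 (2 and 3 libraries, median 1.03). In batch 2 the single FC library lay below the single MC library, MC 4, for 9 of 9 genes (median -0.96). The 2 FR libraries of batch 2 lay above the library labelled MR 4 for 2 of 9 genes, Isg15 and Rtp4 (median -0.28). Without the library labelled MR 4 alone the median female excess was 0.54 log2, without MC 4 alone it was 0.75, and none was called in either. Without MC 4 and the library labelled MR 4, the median female excess was 1.04 log2, all 9 genes had an unadjusted p under 0.05, as did 8.93% of all genes, and Oasl2 was called (1.13, edgeR adjusted p = 0.0340), as were 0.0598% of all genes. Both libraries are in batch 2, and MC 4 is the only male library of that batch whose sex genes match its label.

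**Figure D3:**
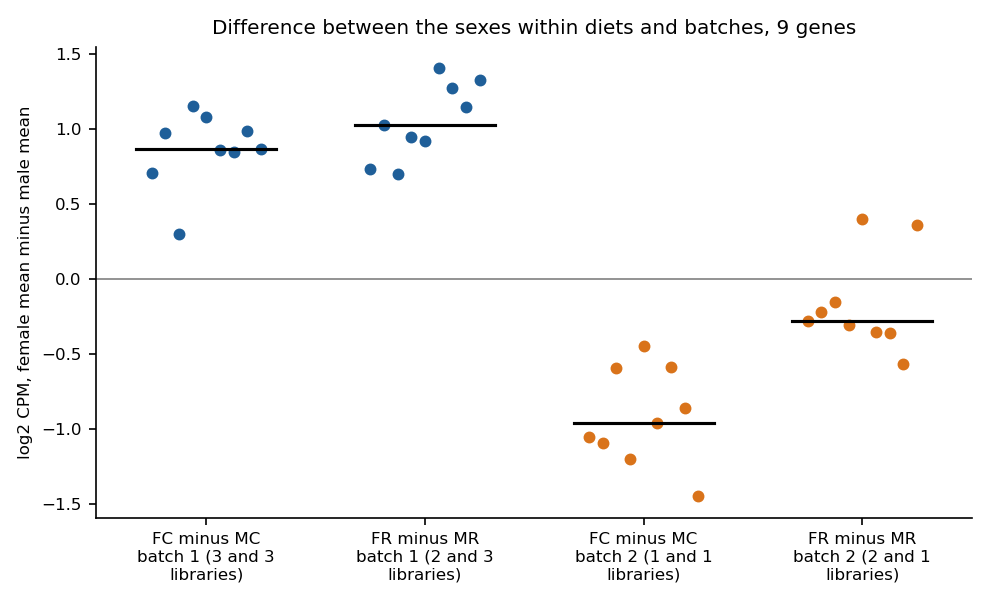
Difference of mean log2 CPM, females minus males by label, for the 9 genes (1 point each) within each diet and batch, with the median as a line. In the batch 2 FR minus MR comparison the male side is only the library labelled MR 4, whose sex genes go against its label. Both batch 1 comparisons lie above 0 for all 9 genes, and the batch 2 comparison of FC 4 with MC 4 lies below 0 for all 9.

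Batch itself was fitted with sex and diet. None of the 9 genes was called between batches, where 12.9% of all genes were. Their log2 differences, batch 2 minus batch 1, ran from -0.39 to 0.37, none had an unadjusted p under 0.05 in edgeR, where 45.1% of all genes did, and DESeq2 called none. Without MC 4, Ifit3 (-0.75, edgeR adjusted p = 0.0329) and Isg15 (-0.72, 0.0457) were called as lower in batch 2, where 12.4% of all genes were called in either direction.

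The 9 genes varied together. Over the 16 libraries the Pearson r of log2 CPM was positive for all 36 pairs, from 0.53 to 0.92 with a median of 0.77, and Spearman's rho ran from 0.40 to 0.89. In the 11 libraries of batch 1 the median r was 0.82. Without the 2 libraries farthest from the median of the first gene of a pair it was 0.69 and the lowest value 0.21. With the sex, diet and batch differences taken out it was 0.77. The points share libraries and therefore depth and tissue composition, so these values describe the libraries and are given without a test.

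The mean standardized level of the 9 genes ordered the libraries from FC 2 (1.51 SD units above the mean of all libraries) and MC 4 (1.27) to MR 3 (-1.93). In FC 1, FC 2, FR 2 and MC 4 all 9 genes lay above their median over libraries. In FR 4 and MR 3 none did, and in MR 3 8 of the 9 were among their 3 lowest values. FR 2, a rapamycin library, was the 4th highest, and MC 1 and MC 3, both vehicle, were the 11th and 13th. Vehicle libraries held 6 of the 8 highest places, and female libraries also held 6 of them, so the order followed neither diet nor sex alone.

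**Figure D4:**
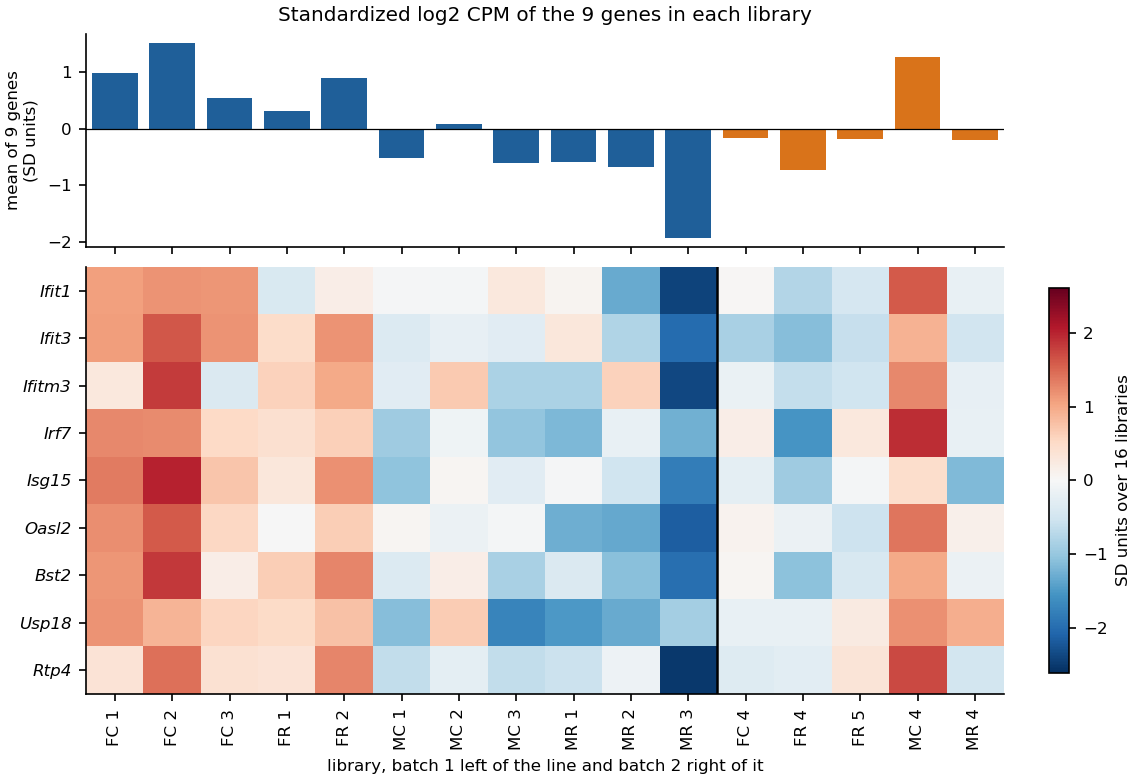
Standardized log2 CPM of the 9 genes in each library (colour, in SD units over the 16 libraries) with their mean above, batch 1 to the left of the line. FC 2 and MC 4 have the highest means (1.51 and 1.27) and MR 3 the lowest (-1.93).

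The 10 genes whose log2 CPM was most like that mean, of 14681 others that averaged 1 CPM or more, were Ifi27 (r = 0.94, n = 16), Ifi27l2a, Slfn8, Phf11b, Ifit3b, Lgals9, Ifi44, Gbp3, Ifi204 and Lgals3bp (r = 0.84). The likeness held at r = 0.71 or above for all 10 without FC 2 and MR 3. Of the 10, 9 were on the interferon lists described next and Phf11b was on none. Their log2 fold changes with rapamycin over both sexes ran from -1.12 for Ifi44 to -0.26 for Ifit3b. The 10 were picked by likeness over these same libraries, so their shared direction with the 9 genes is no separate evidence. Ifi44 (edgeR adjusted p = 0.0202) and Lgals3bp (-0.93, 0.0222) fell past the threshold, where 2.26% of all genes were called. Lgals3bp, which encodes a secreted galectin-binding glycoprotein, read 55.1 ± 21.4 CPM in vehicle and 29.8 ± 12.6 CPM in rapamycin libraries (SD, n = 8 each).

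The ligands of the pathway were nearly absent from the counts. Of 21 interferon genes, 17, including Ifnb1 and 13 Ifna genes, had no read pair in any library, and Ifnab, Ifne, Ifnk and Ifng had 2 to 5 in all 16 together. None was tested. A count of 0 allows a level of up to 3 read pairs, or 0.147 to 0.181 CPM in these libraries, and this limit covers counting error only.

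No receptor gene passed the test. Of 6 receptor genes 5 were tested, none passed an adjusted p of 0.05, and their median log2 fold change was 0.02. Ifngr2, a chain of the interferon gamma receptor, read 44.3 ± 8.66 CPM in vehicle and 43.1 ± 9.26 CPM in rapamycin libraries. Ifnar1, a chain of the type I receptor, read 47.2 ± 3.28 and 44.9 ± 4.75 CPM (SD, n = 8 per diet), with a log2 fold change of -0.08 ± 0.07 (SE).

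Of 11 JAK, STAT and IRF genes none passed in edgeR, and 8 lay on the lower side with a median of -0.15. Jak1, the kinase of both receptor types and the highest per length on this list, had -0.25 ± 0.09 (SE, edgeR adjusted p = 0.0687) and Jak2 -0.05 ± 0.08 (0.710). Of 5 negative regulators, Pias1, an inhibitor of STAT signalling, fell by 0.36 on the log2 scale (edgeR adjusted p = 0.0377), and Ptpn2, a phosphatase of JAK kinases, was at 0.14 (0.393). Pias1 alone of these 5 passed an adjusted p of 0.05, beside 6.86% of all genes that passed as lower. The median of the 5 was 0.01.

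Of 14 tested genes of nucleic acid sensing 13 lay on the lower side, with a median of -0.24, and 2 fell past an adjusted p of 0.05. Among all genes 47.7% lay on the lower side and 6.86% passed as lower. Adar, the RNA-editing enzyme that keeps self RNA from being sensed, fell from 191.1 ± 21.1 CPM on vehicle to 140.0 ± 37.5 CPM on rapamycin (SD, n = 8 per diet), with a log2 fold change of -0.53 ± 0.11 (SE, edgeR adjusted p = 0.0125). The sum of this list was 186.7, 185.2 and 190.4 CPM in FR 1, FR 2 and MR 2 and 256.7 to 298.2 CPM in the other rapamycin libraries. FR 1, FR 2 and MR 2 also had the highest mitochondrial shares (6.88%, 6.98% and 6.99%) and the lowest slopes on exon length of all libraries. The part of these traits in the fall was not tested. Zbp1, a sensor of left-handed nucleic acid, fell from 0.83 ± 0.41 to 0.28 ± 0.314 CPM, or by 1.58 on the log2 scale (edgeR adjusted p = 0.0414), at a level near the filter. Tbk1, the kinase that activates IRF3, was at -0.21 ± 0.07 (SE, 0.0514). Trex1 is listed at 0, and all of its exon bases overlap Gm42641, so reads there could not be assigned to it.

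Of 41 other type I interferon-stimulated genes 38 lay on the lower side, with a median of -0.41, close to the -0.44 of the 9. On this list 7 passed an adjusted p of 0.05, all lower, beside 6.86% of all genes that passed as lower. Those with the largest changes were Ifi44 (-1.12), Lgals3bp (-0.93), Parp14 (-0.72), Slfn5 (-0.57) and Eif2ak2 (-0.55), the last encoding the kinase PKR that halts translation on double-stranded RNA. The 2 highest per length, Ifi27 (-0.41 ± 0.17 SE, edgeR adjusted p = 0.107) and Shisa5 (-0.05 ± 0.07 SE, 0.687), did not pass. Of 12 tested interferon gamma-inducible GTPases all 12 lay on the lower side, with a median of -0.38. Gbp6, a guanylate-binding protein gene, fell by 0.70 (edgeR adjusted p = 0.0437). It alone of the 12 passed, beside the 6.86% of all genes given above. Igtp (-0.41 ± 0.17 SE, 0.1099) and Irgm1 (-0.32 ± 0.15 SE, 0.157), GTPases of the same defence, did not pass. In females 36 of the 41 lay above males (median 0.29 log2), none past an adjusted p of 0.05 in edgeR and 12 with an unadjusted p under 0.05. Among all genes 50.7% lay above males, 5.99% had an unadjusted p under 0.05 in either direction, and 0.0302% were called.

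Without MC 4 none of the 41 and none of the 12 passed an adjusted p of 0.05 in edgeR. On the lower side lay 37 and 11 of them, with medians of -0.34 and -0.29. Of all genes 1.89% were called in that fit, a rule that also asks for the fold, against 2.26% with MC 4 kept. An unadjusted p under 0.05 was held by 27.7% of all genes, against 30.4% with MC 4 kept. Without MC 4 the median of the 9 was -0.22, with 8 of them on the lower side.

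**Figure D5:**
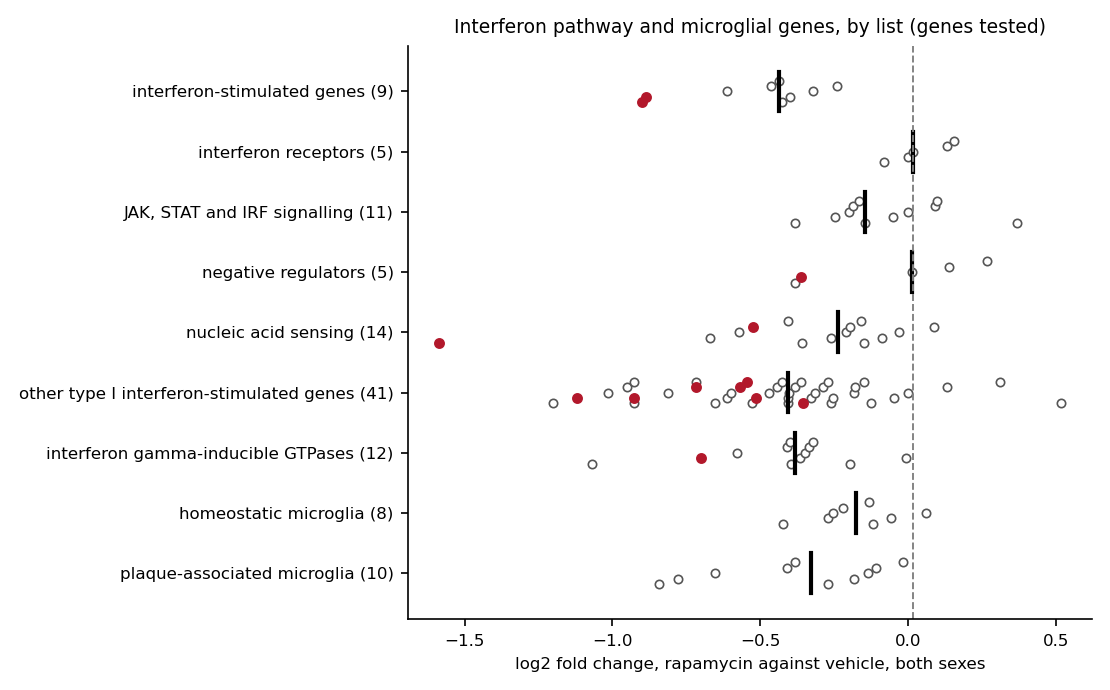
Log2 fold change of rapamycin against vehicle over both sexes for each tested gene of the interferon lists and of 2 microglial lists, with list medians as black bars, genes with an adjusted p under 0.05 filled and the median of all genes (0.02) as a dashed line. The interferon-stimulated lists centre near -0.4 (medians -0.44, -0.41 and -0.38), the receptors and negative regulators near 0 (0.02 and 0.01).

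Microglial markers were read beside these values. Of 10 markers of plaque-associated microglia all 10 lay on the lower side with rapamycin (median -0.33), and of 8 homeostatic markers 7 did (median -0.18), and none passed an adjusted p of 0.05. Among all genes 47.7% lay on the lower side and 6.86% passed as lower. The plaque-associated sum ran from 190.7 to 407.8 CPM in vehicle and from 132.2 to 334.4 CPM in rapamycin libraries, and the homeostatic sum from 398.9 to 640.0 CPM and from 264.9 to 530.9 CPM. Over the 16 libraries the mean level of the 9 genes had r = 0.64 (rho = 0.62) with the plaque-associated sum and r = 0.57 (rho = 0.55) with the homeostatic sum, and the former was 0.46 without the 2 libraries farthest from the median of that sum. All 10 plaque-associated markers were also higher in females (median 0.38 log2), as the 9 genes and 50.7% of all genes were. The part of microglial number or state in the results was not tested. Choroid plexus markers were lower with rapamycin by more than the 9 genes were, with all 8 on the lower side and a median log2 fold change of -1.73. Of the 8, Slc4a5 and Aqp1 passed an adjusted p of 0.05 in edgeR, beside the 6.86% of all genes that passed as lower. Their sum ran from 13.9 to 1964 CPM in vehicle and from 24.7 to 190.8 CPM in rapamycin libraries. Without MC 4 their median was -0.57, 7 of 8 lay on the lower side and none passed, where 1.89% of all genes were called by the rule that also asks for the fold. The choroid plexus sum had r = 0.59 with the mean level of the 9 genes and the endothelial sum r = -0.09, and the part of choroid plexus tissue in the results was not tested. Of 8 lymphocyte markers 7, among them Cd3e and Cd8a, had at most 9 read pairs in any library.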

How the data were processed

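Poly(A)-selected RNA of mouse cortex was sequenced as paired reads in 16 libraries of 4 groups, set by the labels. The counts are raw read pair counts per gene as the authors deposited them: reads were trimmed with Trimmomatic 0.39, checked with FastQC 0.11.9, aligned to GRCm38 (mm10) with HISAT2 2.2.1 and counted over exons by gene name with featureCounts 2.0.3, without strand and without reads that map to several genes, per the file headers and the study's methods. Overlapping and near-identical genes can therefore lose reads. The exon lengths, in bases, come from the deposited table of all libraries, whose 16 count columns repeat the group tables and were not used. The submitters' processing notes also name Trim Galore.

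Genes were filtered with filterByExpr (minimum count 10), scaled with TMM and tested with edgeR 4.0.16 (quasi-likelihood test, R 4.3.3) on all 47593 genes, of which 16553 were tested, with Benjamini-Hochberg adjustment over all of them. Sex, diet and batch were terms for the comparisons over both sexes, of the sexes and of the batches. The 4 groups with batch were fitted for each sex and for the difference between the sexes. A gene was called at an adjusted p under 0.05 and a fold of at least 1.5. Log2 CPM used a prior count of 2, so low genes are slightly compressed, and FPKM is CPM per kilobase of exon. DESeq2 1.42.0 and the settings in the closing section were alternatives. Promoters came from RefSeq (GRCm38.p6), with 7 of the 9 genes matched by symbol. The scripts were tested on simulated data.

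The 9 genes and the gene lists were chosen with earlier results of these data known. Beside the 9 genes, the text names from each pathway list the genes with an adjusted p under 0.05 over both sexes (at most 5, by size of change), the 2 with the highest level per length, and the 10 genes most like the mean of the 9. Depth was 16393501 to 20593089 read pairs per library, and intervals cover the spread between libraries of these groups, each said by the labels to be a biological replicate. The study's text describes samples pooled for sequencing, from fewer mice per sex and treatment than there are libraries. Its figure legend gives as many mice per group as there are libraries, so whether each library is a single mouse is not settled.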

Additional observations from a re-analysis of the deposited data

Results flagged for a closer look

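In 6 of the 36 combinations of the 9 genes with the 4 groups, 1 library lay far from the other 3, with a gap past Dixon's 95% limit for groups of 4 (this test flags about 1 group in 20 by chance). Of these, 4 were MC 4 as the highest MC library, with Ifit1 at 9.45 CPM against 4.35 to 5.07, Ifit3 at 18.8 CPM against 10.9 to 11.6, Oasl2 at 14 CPM against 6.26 to 6.96, and Rtp4 at 7.88 CPM against 2.42 to 2.95. Ifit1 in FC 4, at 4.51 CPM, was the lowest of FC, where the other 3 read 7.38 to 7.75. Usp18 in the library labelled MR 4, at 3.3 CPM, was the highest of MR, where the others read 1.09 to 1.45. All 6 involve batch 2 libraries, of which each group but FR has 1, so batch and library cannot be told apart there. The 9 genes varied together, so the 4 flags of MC 4 are not separate events.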

How the results depend on the processing

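Ifit1 and Oasl2 stayed the called genes over both sexes with DESeq2, with DESeq2 size factors and without MC 4 and the library labelled MR 4 (an alternative chosen after seeing the data). No filter on low counts called 3, with Irf7 as the third. The count was 0 without the batch term, with the mitochondrial share and with the slope of expression on exon length as covariates, and 1 in batch 1 alone. Leaving out 1 library at a time gave 0 to 2, 0 without MC 4 and 1 without FR 1 or MR 2. Over all genes the count of 374 became 36 without the batch term, 425 in batch 1 alone, 452 with DESeq2, 586 without a filter and 0 with either covariate. Without a filter females and males each had 2 genes called, Ifit1 and Oasl2, where 2.66% and 1.15% of all genes were, against 0.0121% and 0% with it. Without MC 4 and the library labelled MR 4 the comparison of the sexes had 1, Oasl2, and that of the batches 3, Ifit3, Isg15 and Bst2, where 16.6% of all genes were called. Between batches, leaving out 1 library gave 0 to 2. The replicate block in place of batch left 2 genes called over both sexes and 291 of all genes. Same-numbered libraries correlated from -0.30 to 0.28 in their deviations from the group means. Without values for differently numbered libraries beside them, these do not decide whether the replicate numbers pair the libraries. Some values changed sign. Rtp4 over both sexes ran from -0.58 to 0.0092 as single libraries were left out, the last without MC 4. In females Ifitm3 was 0.045 in batch 1 alone and ran from -0.27 to 0.11, above 0 without FC 2, and Rtp4 was 0.059 in batch 1 alone, 0.13 in the 8 female libraries alone and 0.14 without MC 4 and the library labelled MR 4, and ran from -0.43 to 0.21, above 0 without FC 2, FR 4 or MC 4. In males Ifit3 ran from -0.66 to 0.026 and Irf7 from -0.86 to 0.098, both above 0 only without MC 4. The differences between the sexes' effects changed sign in 58 of 225 values and those between batches in 20 of 198. The cause was not tested. At 15 to 453 read pairs per gene and library, and with 4 libraries a group, changes within 1 sex have standard errors of 0.27 to 0.43 log2.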
